A study of Mus musculus with 3 samples.

Results

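Chromatin immunoprecipitation followed by sequencing (ChIP-seq) of mouse kidney glomeruli was examined at 6 genes of the podocyte cytoskeleton, namely Synpo, Actn4, Inf2, Myo1e, Anln and Nes. Podocytes are the epithelial cells that wrap the glomerular capillaries, and the series title places Foxc1 and Foxc2, forkhead transcription factors, in these cells. The 6 genes, out of 21887 protein-coding genes of the RefSeq annotation, were listed by name with earlier results of these data known. A peak was assigned to a gene when its summit lay in the annotated gene span or within 50 kb of either end. This gave 14 of 5213 Foxc1 peaks and 13 of 2881 Foxc2 peaks. C57BL/6 mice 8 weeks old, with no treatment or mutation in the labels, gave the glomeruli, which were collected with magnetic beads, and whether animals were pooled is not stated. There was 1 library with an antibody to Foxc1 (D8A6, CST), 1 with an antibody to Foxc2 (AF6989, R&D Systems) and 1 of input DNA, and 1 peak list for each antibody was analysed. Isolated glomeruli also hold endothelial and mesangial cells, so a peak cannot be traced to the podocyte from these lists, and no marker gene was measured that could check the cell type. With 1 library per antibody there is no spread between replicates, and the values below carry no test. The fold enrichment of a peak is the authors' own value, the height at the summit over the local background of their peak caller, and it is used here only to describe and rank peaks within a list.

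The foot processes of podocytes are held in shape by bundles of actin, and the filtration barrier depends on them. Synaptopodin and the alpha-actinins bundle and crosslink actin filaments, formins assemble them, class I myosins tie them to the membrane, and anillin is a scaffold that binds actin and is best known from the contractile ring of dividing cells. In humans, mutations of ACTN4, INF2 and ANLN cause focal segmental glomerulosclerosis, and mutations of MYO1E cause childhood nephrotic syndrome. Nestin, the product of Nes, is an intermediate filament protein and not an actin protein, and it is made by podocytes and by neural progenitors. Forkhead factors bind DNA at motifs close to TGTTTAC.

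Of the 6 genes, 5 had at least 1 Foxc1 summit, against 29.3% of all protein-coding genes. The same 5 also had a Foxc2 summit, against 23.2% of all. Peaks of both antibodies were thus found at 5 of 6 genes, against 12.5% of all protein-coding genes. Anln had neither, like 60.1% of all genes. The median gene of the 6 had 2 summits of each antibody, and the median of all protein-coding genes was 0 for both. A Foxc1 peak overlapped by a Foxc2 peak by at least 1 bp was present at Synpo and Nes, that is 2 of 6 genes, against 3.39% of all. These shares are not matched on gene length, and the stretch searched grows with the span. Within the deciles of span length that hold the 6 genes, 29.2 to 47% of genes had a Foxc1 summit. For Foxc2 the range was 23.3 to 30.1%. The 6 genes were chosen with earlier results of these data known, so none of these comparisons is a test. In all, 3 of 14 Foxc1 peaks were overlapped (21.4%, exact Clopper-Pearson 95% interval 4.66 to 50.8%), against 8.2% of the Foxc1 list, and 3 of 13 Foxc2 peaks (23.1%, exact interval 5.04 to 53.8%), against 14.8% of the Foxc2 list. Both intervals hold the share of the whole list, and they cover counting error only. They treat peaks as independent, although 6 of the 14 Foxc1 peaks, and 2 of the 3 overlapped ones, lay close together at Synpo.

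**Figure D1:**
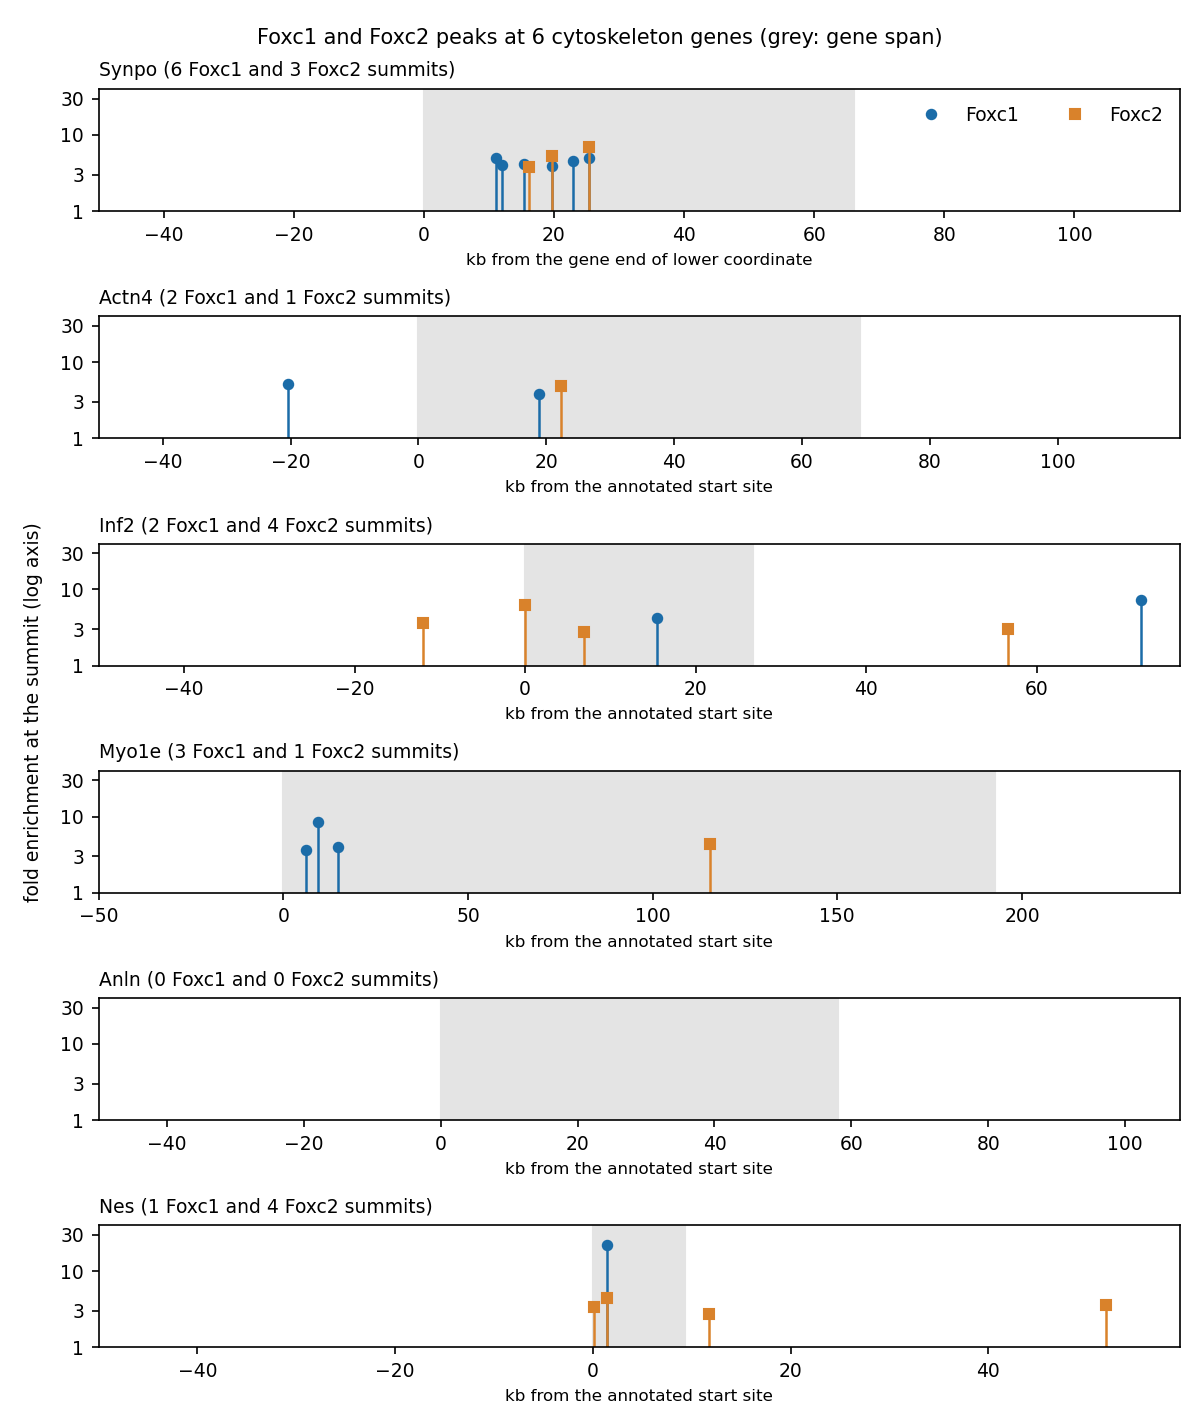
Peaks of both antibodies at the 6 genes, with distance along the gene in kb on the x axis (from the start site in the direction of transcription, and for Synpo from the end of lower coordinate) and fold enrichment on a log y axis. Circles are Foxc1 summits, squares are Foxc2 summits and the grey area is the gene span. The 9 summits of Synpo lie close together inside the gene, the highest point is the Foxc1 peak of Nes at a fold of 22.3, and the panel of Anln is empty.

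Synpo encodes synaptopodin, the actin-bundling protein of podocyte foot processes and of dendritic spines. Its span of 66.2 kb lies on chromosome 18 at 60593981 to 60660173 (mm10). All 9 of its summits, 6 of Foxc1 and 3 of Foxc2, lay inside the span, and none in the 50 kb on either side. The next peak outward was a Foxc1 peak 70.7 kb from the gene, nearest to Dctn4. Strand and start site were not used for this gene, so positions are given from the end of lower coordinate.

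The Foxc1 summits of Synpo stood 11.1, 12.0, 15.4, 19.6, 22.9 and 25.4 kb from that end, with folds of 4.90, 4, 4.11, 3.86, 4.59 and 5. The Foxc2 summits stood at 16.2, 19.6 and 25.3 kb, with folds of 3.78, 5.33 and 6.86. The peaks thus filled a stretch of 14.3 kb with gaps of 4.2 kb or less between neighbouring Foxc1 summits. At 2 places the antibodies coincided. At 19.6 kb the summits were 9 bp apart and the peaks shared 259 bp, which was 77.3% of the shorter peak. At 25.4 kb the summits were 42 bp apart and the Foxc1 peak (60619166 to 60619473) lay wholly within the Foxc2 peak (60619160 to 60619669). The remaining Foxc2 summit was 775 bp from the nearest Foxc1 summit and its peak was not overlapped.

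At its own length, this run of Foxc1 summits had no equal elsewhere in the list. Synpo was the 1 place in the genome with 6 Foxc1 summits within 14.3 kb, a limit taken from the Synpo run itself. With stretches of 20 kb it was also the 1 place with 5 or more. With stretches of 30 kb there were 2 separate places with 6 Foxc1 summits, and with 50 kb there were 5. By gene, 55 protein-coding genes had 6 or more Foxc1 summits within 50 kb (0.251%) and 29 had them inside the span (0.132%). Among the 2189 genes in the same decile of span length, 57.1 to 109 kb, 4 had 6 or more Foxc1 summits within 50 kb (0.183%), Synpo included, and 2.24% had 3 or more Foxc2 summits. Genes with 2 or more overlapped Foxc1 peaks made up 0.302% of all protein-coding genes. The single Foxc1 peaks of Synpo were of low to middling fold for their list. Their folds were above those of 16.3 to 52.2% of Foxc1 peaks, whereas the Foxc2 peaks at 19.6 and 25.3 kb were above 85.3 and 95.5% of Foxc2 peaks. At a fold of 5 or more, Synpo kept 1 Foxc1 and 2 Foxc2 summits, and with a q-value of 1e-05 or less it kept 6 and 2. The Foxc1 summit kept at a fold of 5 or more has a fold of 5.00001, at the limit itself.

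**Figure D2:**
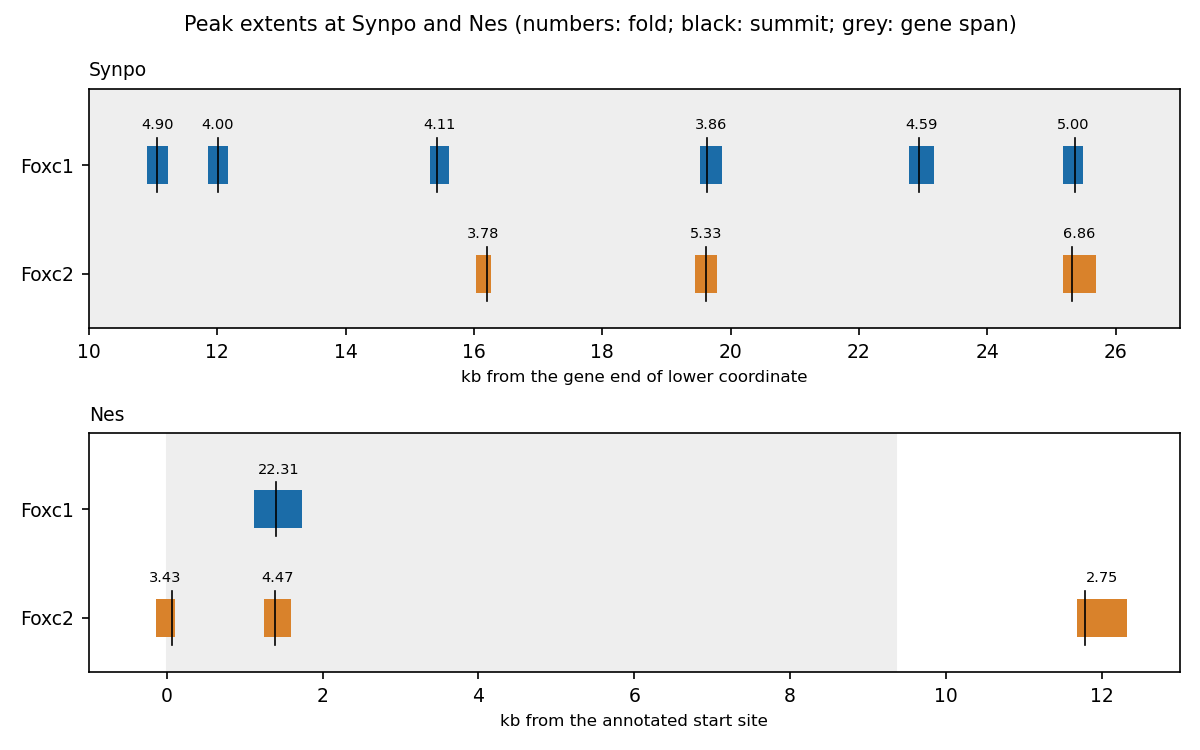
Extents of the peaks at Synpo, 10 to 27 kb from the end of lower coordinate, and at Nes, around the gene. Bars are peaks, black lines are summits, numbers are fold enrichments and grey is the gene span. At Synpo the Foxc2 peaks of fold 5.33 and 6.86 each sit on a Foxc1 peak, and at Nes the Foxc1 peak of fold 22.3 sits on a Foxc2 peak of fold 4.47.

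Actn4 encodes the alpha-actinin of podocytes, a rod-shaped dimer that crosslinks actin filaments. It spans 69.1 kb on the minus strand of chromosome 7 (28893248 to 28962351), close in length to Synpo, and had 2 Foxc1 and 1 Foxc2 summits. In its span decile, which is that of Synpo, 13% of genes had 2 or more Foxc1 summits and 30.1% had a Foxc2 summit, so these counts were not rare. Inside the gene, a Foxc2 peak of fold 4.81 (28939843 to 28940077) lay 22.3 kb downstream of the start site. A Foxc1 peak of fold 3.80 (28943230 to 28943461) lay 18.9 kb downstream, in a part that the annotation also gives to the long noncoding RNA gene Gm51446. The summits were 3.4 kb apart and the peaks did not overlap. The Foxc1 peak was among the weak peaks of its list, above 12.6% of them, and the Foxc2 peak was above 76.5%. Neither has a fold of 5 or more.

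The other Foxc1 peak counted for Actn4, of fold 5.22, lay 20.3 kb upstream of the gene and inside Map4k1, a kinase gene of blood cells, which is the nearer gene. It spanned 28982525 to 28982866 and fell on an annotated start site of Map4k1, with its summit at position -173 bp relative to that site. This is a place where the sequence under a Foxc1 summit could be read, because it lies in a RefSeq promoter window (250 bases before to 50 after a start site, GRCm38.p6, chr7:28982604-28982903, plus strand). The capitals below mark the motif TATTTAC, a forkhead-type variant that reads GTAAATA on the other strand.
Map4k1 window: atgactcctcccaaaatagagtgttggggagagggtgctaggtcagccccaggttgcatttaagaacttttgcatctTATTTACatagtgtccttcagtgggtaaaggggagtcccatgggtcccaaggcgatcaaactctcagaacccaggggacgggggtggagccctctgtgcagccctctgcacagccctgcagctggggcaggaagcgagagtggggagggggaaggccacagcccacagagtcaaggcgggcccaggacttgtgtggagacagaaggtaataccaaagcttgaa
The match covers bases 78 to 84 of the window, and the Foxc1 summit is base 78, the first base of the match. Of 21263 promoter windows of protein-coding genes, 2.59% held TATTTAC or GTAAATA. A match is a description of the letters and does not show a binding site.

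Inf2 encodes a formin that both assembles and severs actin filaments. It is a shorter gene of 26.8 kb on the plus strand of chromosome 12 (112588744 to 112615557), and it had 2 Foxc1 and 4 Foxc2 summits. Among the 2189 genes of its span decile, 24.6 to 35.8 kb, 9 had 4 or more Foxc2 summits (0.411%), and 7.95% had 2 or more Foxc1 summits. Over all protein-coding genes, 0.649% had 4 or more Foxc2 summits. No peak of Inf2 was overlapped by the other antibody, and the nearest summits of the 2 antibodies were 8.52 kb apart.

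The strongest Foxc2 peak of Inf2 lay at its promoter. It had a fold of 6.19, a minus log10 q of 14.2 and a place above 92.6% of Foxc2 peaks, and it spanned 112588603 to 112588989. RefSeq gives start sites at 112588767 and 112588784, and the summit was 39 bp downstream of the first and 22 bp downstream of the other. Of the other Foxc2 peaks, that of fold 3.61 lay 12 kb upstream in no annotated gene. The peak of fold 2.75, 6.92 kb inside the gene, was among the weakest of the list, above 2.19% of it. The last, of fold 3, lay inside Siva1, 29.8 kb past the end of Inf2. The Foxc1 peak within the gene had a fold of 4.27 and stood 15.4 kb from the start. The other, of fold 7.28, lay inside Akt1, which encodes a kinase that acts downstream of phosphoinositide signals, 45.5 kb past the end of Inf2. Stricter settings left fewer of the 4 Foxc2 summits. Inf2 kept 1 Foxc2 summit at a fold of 5 or more and 1 with a q-value of 1e-05 or less, and within 10 kb of the gene it had 2. Its Foxc1 summits under these settings were 1, 2 and 1. With the nearest gene alone counted, Inf2 kept 1 Foxc1 and 3 Foxc2 summits.

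Nes had the strongest peak of the 6 genes. It is the shortest of them, at 9.36 kb on the plus strand of chromosome 3 (87971093 to 87980451), and had 1 Foxc1 and 4 Foxc2 summits. The Foxc1 peak (87972215 to 87972832) had a fold of 22.3 and a minus log10 q of 138, and ranked 76 among 5213 Foxc1 peaks by fold. Its summit lay 1.4 kb downstream of the start site. The summit of a Foxc2 peak of fold 4.47 (87972345 to 87972683) was 16 bp away, and that peak lay wholly within the Foxc1 peak. Exons and introns were not used here, so the part of the gene is not named.

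A separate Foxc2 peak of fold 3.43 (87970950 to 87971198) covered the start site of Nes, with its summit 62 bp downstream. The remaining Foxc2 peaks were a weak peak of fold 2.75 at 2.43 kb past the end of the gene and a peak of fold 3.61 inside Hapln2, 42.5 kb past the end. Among the 2189 genes of the span decile of Nes, 7.38 to 11.7 kb, 15 had 4 or more Foxc2 summits (0.685%) and 29.2% had a Foxc1 summit. With a q-value of 1e-05 or less, Nes kept 1 Foxc1 and 1 Foxc2 summit, which left the overlapping pair, and at a fold of 5 or more it kept 1 Foxc1 and 0 Foxc2 summits.

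Among the members with a known start site, Inf2 and Nes had a peak on their own promoter, both of Foxc2. Start sites were known for 5 of the 6 genes, and the peaks of Synpo could not be set against a promoter. Of these 5, 2 had a Foxc2 summit within 1 kb of their start, against 8.36% of 17492 protein-coding genes with a known start, and 0 had a Foxc1 summit there, against 2.7%. The promoter windows of both genes are shown, from RefSeq GRCm38.p6, with the bases inside the Foxc2 peak in capitals (Inf2 at chr12:112588517-112588816 and Nes at chr3:87970843-87971142, plus strand).
Inf2 promoter: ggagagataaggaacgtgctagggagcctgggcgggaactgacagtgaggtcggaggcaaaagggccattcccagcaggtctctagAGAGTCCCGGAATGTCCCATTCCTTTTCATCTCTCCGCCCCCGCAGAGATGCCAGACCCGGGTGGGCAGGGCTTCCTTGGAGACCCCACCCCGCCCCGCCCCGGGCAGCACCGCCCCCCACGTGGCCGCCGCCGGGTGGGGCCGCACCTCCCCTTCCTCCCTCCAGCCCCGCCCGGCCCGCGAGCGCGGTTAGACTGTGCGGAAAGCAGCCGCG
Nes promoter: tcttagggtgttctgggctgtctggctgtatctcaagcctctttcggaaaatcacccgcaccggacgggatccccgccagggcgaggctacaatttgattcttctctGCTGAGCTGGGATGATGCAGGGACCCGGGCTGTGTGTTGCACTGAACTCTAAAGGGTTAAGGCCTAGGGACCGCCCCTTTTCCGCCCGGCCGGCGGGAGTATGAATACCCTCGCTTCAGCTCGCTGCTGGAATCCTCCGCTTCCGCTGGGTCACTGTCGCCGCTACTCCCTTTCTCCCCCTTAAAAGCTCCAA
The peak covered 214 of 300 bases at Inf2 and 193 at Nes, and the Nes summit lay just beyond the window's last base. The windows are 69.7 and 58.7% G and C, against a median of 56.3% over all protein-coding windows and 69% over the 1289 windows overlapped by a Foxc2 peak.

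These windows and those of Actn4, Myo1e and Anln were searched on both strands for 4 motifs. These were TGTTTAC, which reads GTAAACA on the other strand, and TATTTAC, given above. The others were TGTTTAT, which reads ATAAACA on the other strand, and the shorter TGTTT or AAACA, which is contained in TGTTTAC and in TGTTTAT. None of the 4 was found in the Inf2, Nes and Anln windows. Actn4 had 1 match to TGTTT and Myo1e 2, and neither gene had a peak there. Of all 21263 windows, 3.01% held TGTTTAC, 3.92% TGTTTAT and 45.5% TGTTT. A window without these letters says nothing about the factor.

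Myo1e encodes a class I myosin that moves along actin and binds the cell membrane. It is the longest of the 6 genes, with 193 kb on the plus strand of chromosome 9 (70207350 to 70400067), and had 3 Foxc1 and 1 Foxc2 summits, all inside the gene. The Foxc1 summits stood together near the start, 6.02, 9.41 and 14.8 kb downstream of it, with folds of 3.65, 8.54 and 3.96. The annotation places a long noncoding RNA gene, Gm26849, over the same stretch. The middle peak (70216568 to 70216926) was the second strongest Foxc1 peak of the 6 genes and stood above 84.7% of its list. The Foxc2 summit was far from them, 116 kb into the gene, with a fold of 4.33. In the decile of the longest genes, 109 kb and more, 11.6% had 3 or more Foxc1 summits and 27.7% had a Foxc2 summit. At a fold of 5 or more, Myo1e kept 1 Foxc1 summit and 0 Foxc2 summits.

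Anln was without a peak of either antibody in its span of 58 kb on the minus strand of chromosome 9 (22331214 to 22389211) or within 50 kb of it. The nearest Foxc1 summit was 473 kb from the gene and the nearest Foxc2 summit 579 kb. Of the genes of its span decile, the same as that of Synpo and Actn4, 49.8% had no summit of either antibody. Depth is unknown, so a weaker site could have gone uncalled.

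**Figure D3:**
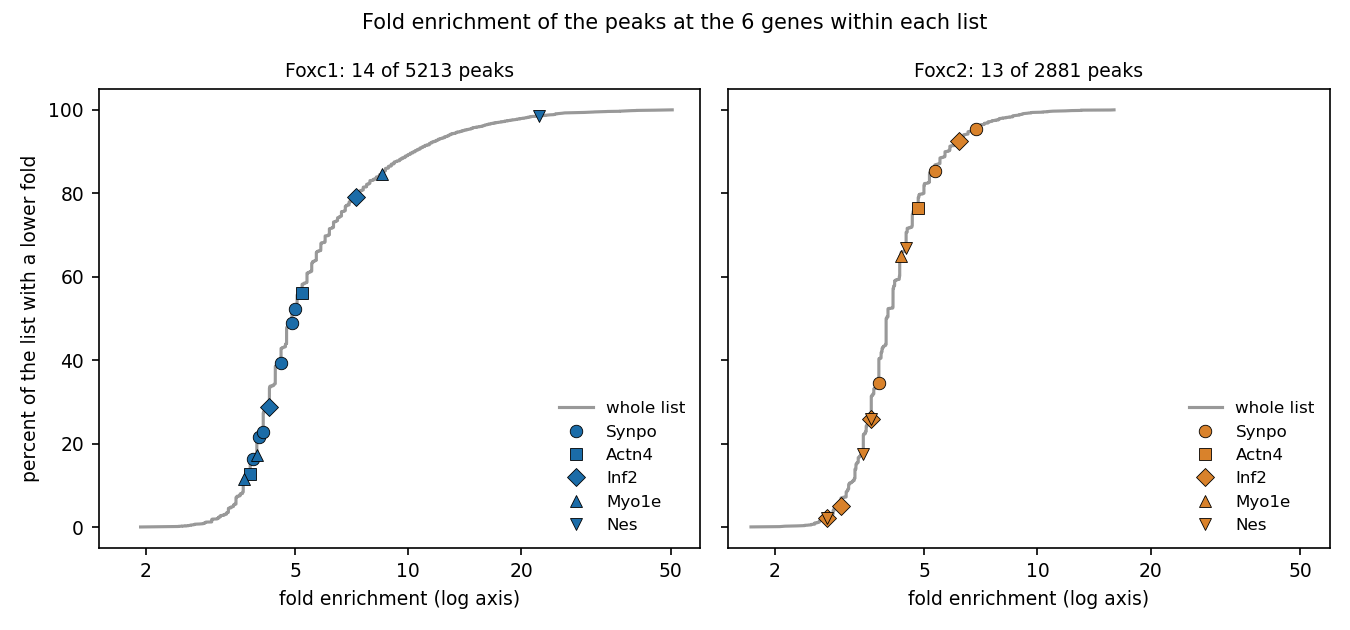
Fold enrichment of each peak at the 6 genes (log x axis) against the percentage of its own list with a lower fold (y axis), with the whole list as a grey line, for Foxc1 on the left and Foxc2 on the right. The Foxc1 peak of Nes stands near the top of its list, while most Foxc1 peaks of Synpo stand on the lower part of the curve.

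As a group, the peaks of the 6 genes were of ordinary strength. Their median fold was 4.43 for Foxc1, against 4.90 for the whole list, and 3.78 for Foxc2, against 3.97. For 9 of 14 Foxc1 peaks and 7 of 13 Foxc2 peaks, less than 50% of the list had a lower fold. Among these, the Foxc1 peak of Synpo with a fold of 4.90 was level with the list median. A fold of 5 or more was reached by 5 of 14 Foxc1 peaks (35.7%), against 47.9% of the list, and by 3 of 13 Foxc2 peaks (23.1%), against 18.1%. Many weak peaks share the same values. The Foxc2 peaks of fold 3.61 upstream of Inf2 and inside Hapln2 had the fold and p-value of 154 peaks of the list, so their ranks are ties.

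Most of the peaks lay inside the genes. Inside the spans lay 12 of 14 Foxc1 summits (85.7%) and 9 of 13 Foxc2 summits (69.2%). When summits were assigned to all protein-coding genes in the same way, 31.6% of 9521 Foxc1 assignments and 27.4% of 7232 Foxc2 assignments lay inside the span, over genes not matched on length. Of these 12 Foxc1 summits, 6 were those of Synpo. By gene, 5 of 6 had a Foxc1 summit inside the span, against 9.53% of all protein-coding genes, and 5 of 6 a Foxc2 summit there, against 7.58%. These shares also are not matched on length. In the span decile of Synpo, Actn4 and Anln, 20.6% of genes had a Foxc1 and 15.4% a Foxc2 summit inside the span. For Foxc1 the share was 8.77% in the decile of Inf2 and 3.38% in that of Nes. For Foxc2 it was 18.3% in the decile of Myo1e. Within 1 kb of a start site of any protein-coding gene, with Synpo left out for lack of a start site, lay 1 of 8 Foxc1 summits (12.5%, exact 95% interval 0.316 to 52.7%) and 3 of 10 Foxc2 summits (30%, exact interval 6.67 to 65.2%). For the whole lists without chromosome 18 these shares were 8.65% and 50.6%. The Foxc1 summit was that of Map4k1 and the Foxc2 summits were those of Inf2, Nes and Siva1, so 2 of these 4 belong to a neighbour.

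Just outside the 50 kb limit, 50.3 kb from Nes, lay a Foxc1 peak with a fold of 5.70, and the farthest peaks counted were the Foxc1 peak inside Akt1 at 45.5 kb from Inf2 and the Foxc2 peak inside Hapln2 at 42.5 kb from Nes. A pair of peaks at the far end of Akt1, 58.7 and 59.5 kb from Inf2, and an overlapping pair in Fam81a, 75.0 and 75.1 kb from Myo1e, also fell outside.

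Other cytoskeleton genes were set beside the 6. In 8 lists holding 100 further genes, 49 had Foxc1 peaks (49%) and 38 had Foxc2 peaks (38%), against the 29.3 and 23.2% of all protein-coding genes given above, and the median gene had 0 of each. These genes were picked as cytoskeleton genes of the podocyte with earlier results known and were not matched on length. Relatives of the 6 genes differed. The synaptopodin relatives Synpo2 and Synpo2l had 3 and 1 Foxc1 summits and no Foxc2 summit. Among alpha-actinins, Actn1 had 1 Foxc1 and 2 Foxc2 summits, whereas the muscle genes Actn2 and Actn3 had none. These relatives were singled out after their values were seen.

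The counts of each list stand beside the same shares of all protein-coding genes, 29.3% for Foxc1 and 23.2% for Foxc2. Of the 12 other formins, 5 had Foxc1 peaks (41.7%) and 2 had Foxc2 peaks (16.7%, below the share of all genes). Fmnl2 had 6 Foxc1 summits and no Foxc2 summit, all inside its span of 276 kb, and Fmnl1 had 4 and 2, none inside its span. Of 13 other class I and nonmuscle myosins, 8 had Foxc1 peaks (61.5%), and 7 of these had Foxc2 peaks as well (53.8% of the 13). Among the 7 are the neighbours Myl12a and Myl12b, which were counted with the same Foxc1 peak and the same Foxc2 peak. Myo1d had 6 and 2 with 2 overlapped Foxc1 peaks, Myo1c had 4 and 2 with a strongest Foxc1 fold of 17.8, and Myo1a had 2 and 4. None of the Foxc1 summits of Myo1c lay inside its span of 24.1 kb, and no summit of Myo1a lay inside its span. Of 10 partners of anillin, mostly septins, 3 had Foxc1 peaks and 3 had Foxc2 peaks (30% each), near the shares of all genes. Of 10 intermediate filament genes, 3 had Foxc1 peaks (30%) and 4 had Foxc2 peaks (40%).

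Arhgap24, a GTPase activator for Rac, had 5 summits of each antibody in a span of 698 kb. Srgap1 had 2 Foxc1 and 4 Foxc2 summits, and Dlc1 had 6 Foxc1 summits and no Foxc2 summit. Of 26 other podocyte actin regulators, 14 had Foxc1 peaks (53.8%, against 29.3% of all protein-coding genes) and 13 had Foxc2 peaks (50%, against 23.2%).

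**Figure D4:**
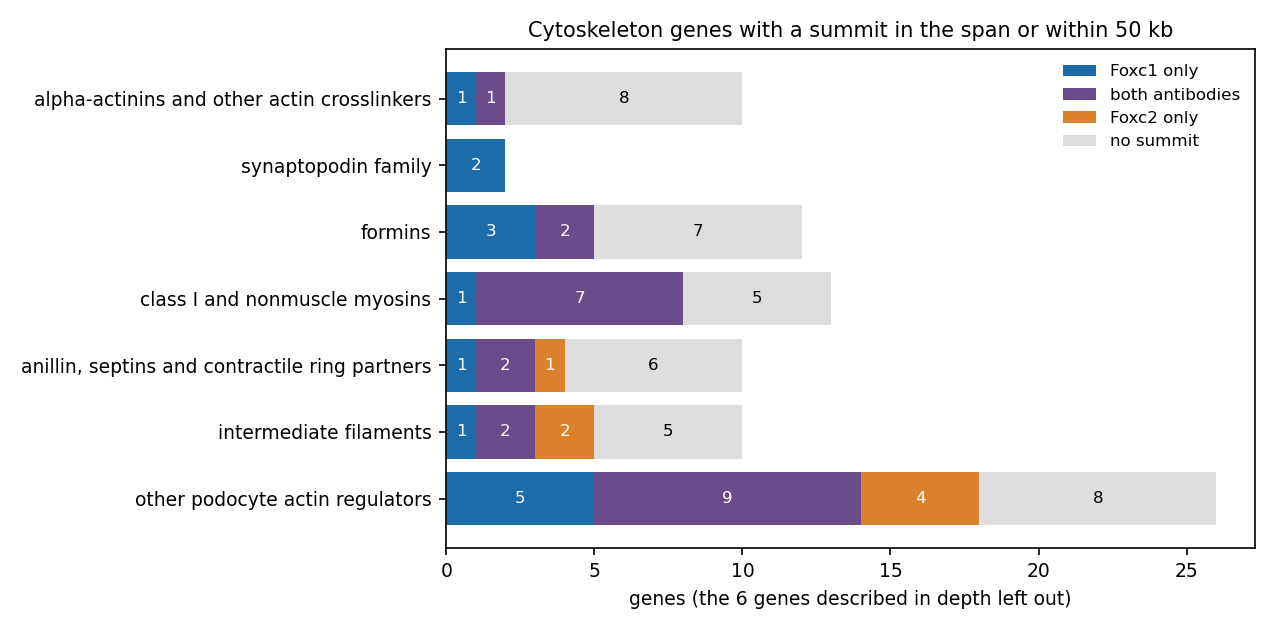
Number of genes in each of 7 of the 8 lists of cytoskeleton genes (x axis) with a summit in the span or within 50 kb, the 6 genes described in depth left out. Colours mark genes with Foxc1 summits only, with both antibodies, with Foxc2 summits only and with no summit. In the myosin list 7 genes had both antibodies, with Myl12a and Myl12b counted for the same peaks. In the list of actinins and other crosslinkers 8 of 10 genes had no summit.

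Genes with a pattern like that of a member were sought by Euclidean distance over 3 counts (Foxc1 summits, Foxc2 summits and overlapped Foxc1 peaks) in these 2 libraries, among 890 other genes with 4 or more summits. For Synpo, 2 genes had a distance of 0, namely Cblb and Myoz3, and Adcy10 followed at a distance of 1. Myoz3 is the neighbour of Synpo and was counted with the same 9 peaks. For Inf2, 6 genes had a distance of 0, among them Csnk1a1, Myo1a and Matn4, which were closest in length. For Nes there were 11, among them Faap20, Crabp2 and Zbtb25. Crabp2 is the neighbour of Nes and was counted with the same Foxc1 peak and most of the same Foxc2 peaks. For Myo1e there were 101, among them Hipk2, Slc44a1 and Cubn, which were closest in length.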

How the data were processed

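Glomerular ChIP-seq libraries of Foxc1, Foxc2 and input DNA were listed in the labels, with groups read from their titles. The submitters' processing notes name Bowtie2, MACS2 and the build mm10. The sources used here do not give versions, settings, the control or any pooling. The peak lists the authors deposited give, per peak, a fold (a ratio to local background), p-values and q-values as −log10, and a summit offset. The deposited score column repeats the q-value and was not used. Each peak had a q-value under 0.05. Depth is unknown, since no read counts are given.

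Positions are 1-based. Gene spans and promoter windows came from RefSeq GRCm38.p6, the assembly of mm10. Of 21887 protein-coding genes on the autosomes, X and Y, 17492 had a start site in the table, and none of these is on chromosome 18. The 8 gene lists held 6 septins under older names, matched through synonyms. The counts of 1 of the 8 lists are not reported here. Named were the 6 genes, the 8 listed genes with the most summits, and up to 3 genes of like pattern for each member with 4 or more summits. Genes at or beside the peaks were named as neighbours, and relatives of Synpo and Actn4 were named after their values were seen. Myl12a and Myl12b were named because they share peaks. The 6 genes and the lists were chosen with earlier results of these data known. Overlap required 1 bp. Intervals are exact Clopper-Pearson 95% intervals from scipy 1.17.1, treat peaks as independent and cover counting error only. Background shares over all protein-coding genes are given as description and do not replace a test, which 1 library per antibody does not allow. Alternatives covered distance of assignment, peak thresholds, overlap and distance to starts. The counting was tested on simulated data with planted peaks. Peaks were counted with pandas 2.3.3.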

Additional observations from a re-analysis of the deposited data

How the results depend on the processing

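Of 27 alternative settings, 19 left the count close to the one reported and 8 moved it by more than 1.5 times. Limited to a fold of 5 or more, the 14 Foxc1 and 13 Foxc2 summits of the 6 genes became 5 and 3, the 3 overlapped peaks of each antibody became 1, and the 2 Foxc2 summits within 1 kb of a start became 1. The overlapped pair left is at Synpo, and its Foxc1 peak has a fold of 5.00001, at the limit itself. With a q-value of 1e-05 or less the Foxc2 summits became 6. With as many of the strongest Foxc1 peaks as there are Foxc2 peaks, the Foxc1 summits became 6. With starts counted up to 2 kb away, Foxc1 summits at a start became 1, that of Nes. These settings leave fewer peaks or count a longer distance by their construction. Assignment within 10 kb, within 100 kb, inside the span or to the nearest gene gave 12 to 20 Foxc1 summits and 9 to 19 Foxc2 summits. No paired analysis was possible because each antibody has 1 library. Depth is unknown, and weak sites may be missed in either list.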

Other observations

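The share of promoter windows with a forkhead motif was also counted over the whole lists, as a description. Of 286 protein-coding promoter windows overlapped by a Foxc1 peak, 22% held TGTTTAC or its other strand GTAAACA, and of 1289 overlapped by a Foxc2 peak 2.95% did, against 3.01% of all 21263 windows. For TATTTAC these shares were 8.04%, 0.853% and 2.59%. The Foxc1 peak at the Map4k1 start, near Actn4, lies among the windows with TATTTAC, and the Foxc2 peaks at the Inf2 and Nes starts lie in windows that held none of the 4 motifs searched. The 3 sets differ in base composition, with a median of 61.5, 69 and 56.3% G and C, and its part in these shares was not tested. The shares carry no test, since windows of 1 library are not replicates.

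Myo1a, a class I myosin gene of the intestine, matched Inf2 in the number of summits only, with 2 of Foxc1 and 4 of Foxc2. It lies on chromosome 10, and none of its summits lay inside its span of 17.5 kb.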
